A study of Mus musculus with 12 samples.

Results

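The heat shock protein genes described here are 10 chaperone genes, Hspa8, Hspa1a, Hspa1b, Dnajb1, Hsph1, Hsp90aa1, Hsp90ab1, Hspd1, Hspe1 and Hspa9, taken by symbol from the 35976 genes counted in each library. They were measured by 3′ tag RNA sequencing, which reads the end of each transcript, in haematopoietic stem cells (HSCs) of mice labelled as Cd38 knockout (KO) or wild type (WT). Cells were sorted as lacking lineage markers and carrying c-Kit and Sca-1, a gate that also takes in multipotent progenitors. The 12 libraries formed 6 groups of 2. These were KO and WT cells of animals aged 2 months (young) after 24 h of cytokine stimulation outside the body, fresh KO and WT cells of animals aged 24 months (old), and fresh KO and WT cells of young animals. CD38 is a membrane enzyme that consumes NAD, and the stated aim was to learn what it does in these cells at rest, on activation and in age. Neither the mouse strain nor the deleted stretch of Cd38 is stated in the labels, and no label ties a library to an animal, so p-values measure only the spread between these samples.

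Heat shock proteins hold unfolded proteins and help them fold. In the cytosol, HSP70 proteins bind client proteins with the help of HSP40 co-chaperones and are reset by nucleotide exchange factors of the HSP110 type, and HSP90 finishes the folding of kinases and receptors. In mitochondria, mortalin draws proteins in and the HSP60 barrel with its HSP10 lid folds them. The transcription factor HSF1 raises many of these genes after heat or proteotoxic stress by binding heat shock elements, which are inverted repeats of GAA, and blood stem cells are known to depend on tight control of protein quality.

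Total counts were 2692245 to 3249721 in stimulated, 3796591 to 5164720 in old fresh and 1600155 to 1963635 in young fresh libraries. Neither age nor stimulation can thus be told apart from depth by design. Genes with a count numbered 13163 to 13450, 9548 to 10231 and 9116 to 9993 in these 3 conditions. The 12 HSC markers summed to 1721 to 1894 CPM (counts scaled to a common library total, with TMM factors) in stimulated, 1891 to 2664 in old fresh and 2498 to 2745 in young fresh cells, with 11 or 12 of the 12 above 0 in every library. The 9 neutrophil and granule markers summed to 2001 to 3426 CPM in stimulated, 423 to 3236 in old fresh and 5105 to 9621 in young fresh cells. The 7 T and NK cell markers summed to 112 to 231 CPM in stimulated, 19.4 to 122 in old fresh and 14.3 to 34.6 in young fresh cells. In that list Cd3e, Cd4 and Cd8a had 0 counts throughout, Cd3d and Cd3g were counted only in stimulated WT replicate 1, and Nkg7 and Klrb1c made up the rest. The 8 stroma markers, with the endothelial genes Cdh5 at 0 throughout and Pecam1 at 11.3 to 16.8 CPM in stimulated, 4.80 to 41.7 in old fresh and 0 to 7.51 in young fresh cells, summed to at most 72.2 CPM. Cd38 was counted in KO as in WT libraries, at 2.31 to 3.58 against 0.996 to 8.56 CPM in stimulated, 13.2 to 19.8 against 41.4 to 74.3 in old fresh and 31.9 to 62.7 against 17.5 to 24.5 in young fresh cells. A tag at the 3′ end may lie outside the deletion, so this checks the genotype in neither direction. Young fresh WT replicate 1 was the only library in which Xist, an RNA of female cells, had no count.

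Together the 10 genes took 0.891% to 1.05% of all counts in stimulated libraries, 0.663% to 0.751% in old fresh libraries and 0.636% to 0.821% in young fresh libraries. Both HSP90 genes made up 76.5% to 78.7% of these counts in stimulated cells, 64.2% to 69.0% in old fresh cells and 74.3% to 78.5% in young fresh cells. The HSP90 share of the family was thus lower in each old fresh library than in each young one. The other 8 genes took 0.216% to 0.251% of counts in old fresh cells and 0.156% to 0.209% in young fresh cells, ranges that did not overlap. This was not a trait of each of the 8. Mean levels rose most in Hspe1 (1016 CPM in old fresh against 591 in young fresh cells) and Dnajb1 (403 against 140). They were lower in old cells for Hspa8 (478 against 521) and Hspd1 (177 against 211).

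**Figure D1:**
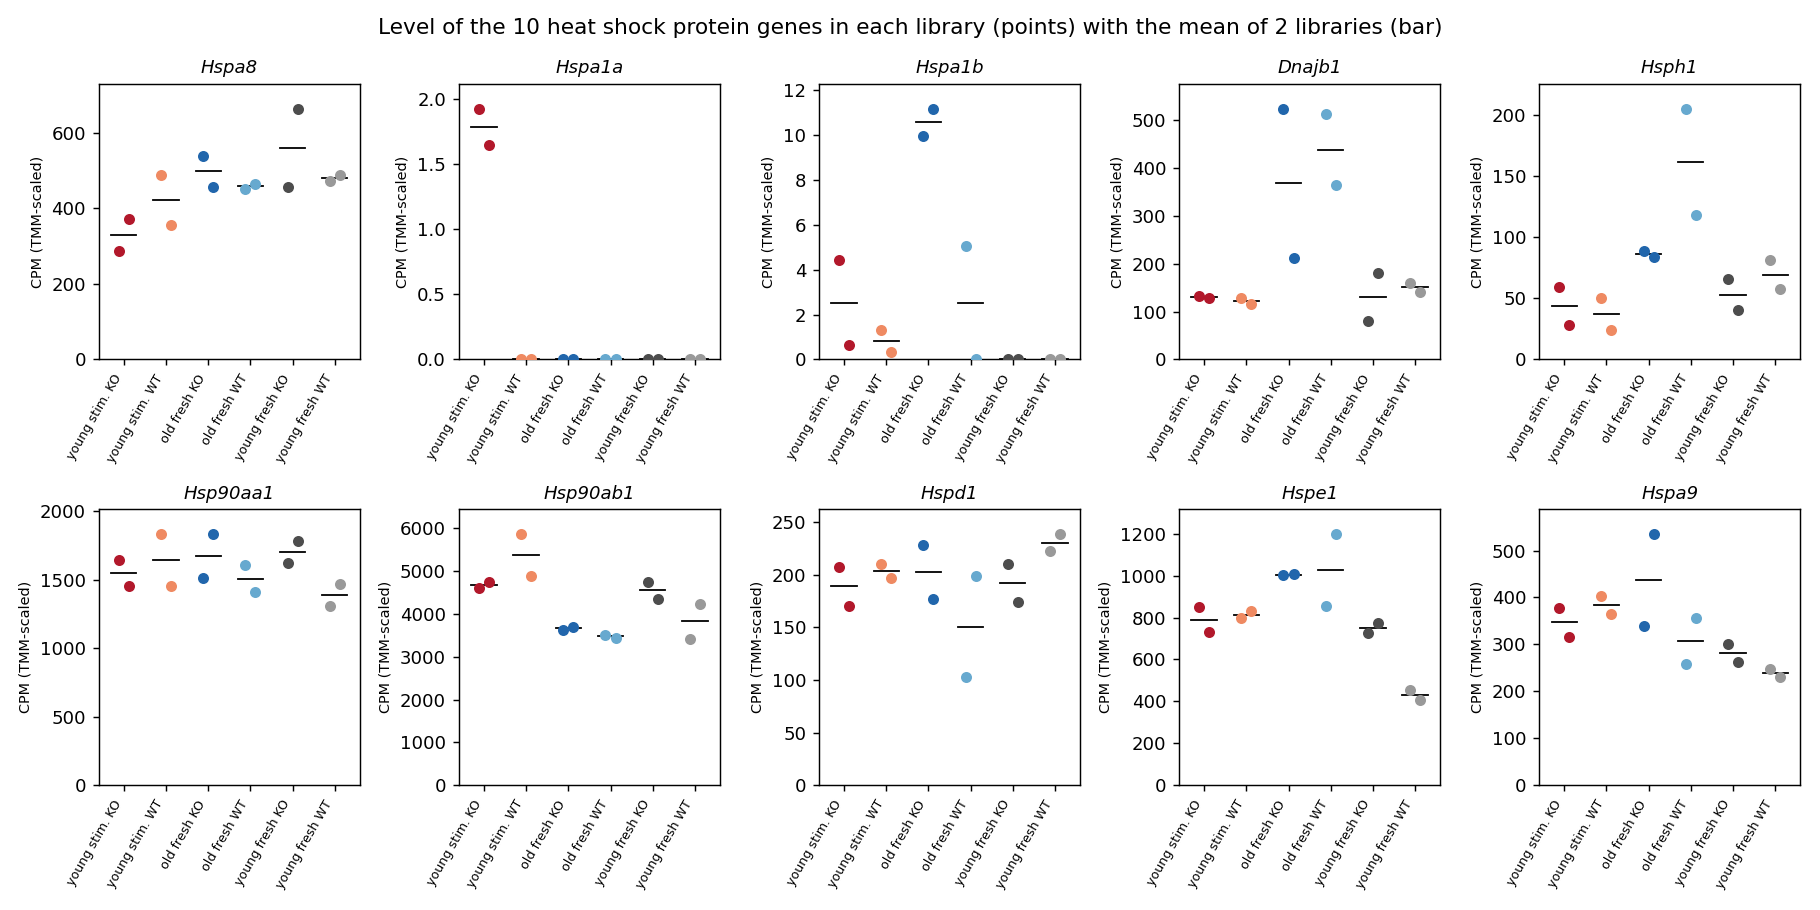
Level of each of the 10 genes in CPM (vertical axes, from 0) in the 12 libraries (points), with the mean of the 2 libraries of a group as a bar. Dnajb1, Hsph1 and Hspe1 lie higher in all 4 old fresh libraries than in all 4 young fresh ones, and Hspa1b was counted in 3 of the 4 old fresh libraries and in no young fresh one.

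Promoter sequence was read for 6 of the 10 genes (RefSeq, build GRCm38.p6), and not for Hspa8, Hsp90aa1, Hsp90ab1 and Hspa9. The 250 bases before each start were searched on both strands for a pair of facing repeats, GAANNTTC or TTCNNGAA, and for 3 repeats in a row, which is such a pair followed after NN by the repeat that faces its second one. These patterns read the same on either strand, and a run of 3 holds overlapping pairs. Of the 6 genes, 5 held a pair (Hspa1a, Hspa1b, Hsph1, Hspd1 and Hspe1), against 14.5% of 27025 genes in the table. These 5 are not separate sequences. The windows of Hspa1a and Hspa1b differed at 3 of 250 bases. Hspd1 had matches only before its second start, in the stretch it shares with Hspe1. A run of 3 was found for Hspd1 and Hspe1, against 0.514% of all genes, and both searches read the same stretch, because these genes start back to back on chromosome 1. A match is a description of letters and not a site of binding.

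The sequences that follow are those of Dnajb1 and Hspe1, which passed the age test described below, and of Hsph1 and Hspa1b, which did not. They are written 5′ to 3′ on the strand of the gene, with repeats in capitals. For Hspe1 (chr1:55088053-55088082, plus strand, bases -95 to -66 from the start) the stretch shared with the Hspd1 promoter is shown, and for Hsph1 (chr5:149636351-149636380, minus strand, -44 to -15) the pair of repeats with its surroundings. The whole searched window is shown for Hspa1b (chr17:34959239-34959488, minus strand), whose pair begins at -104. For Dnajb1 (chr8:83607972-83608174, plus strand, -203 to -1) neither of its 2 starts had a match, which says only that these letters are not in the windows searched.
Hspe1: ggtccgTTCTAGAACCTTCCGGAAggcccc
Hsph1: gggtagaatctTTCTCGAAggctcgagaag
Hspa1b: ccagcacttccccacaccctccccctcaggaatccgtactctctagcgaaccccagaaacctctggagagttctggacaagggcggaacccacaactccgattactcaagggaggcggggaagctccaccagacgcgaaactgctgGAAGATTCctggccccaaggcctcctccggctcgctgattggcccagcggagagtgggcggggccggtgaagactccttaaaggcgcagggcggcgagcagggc
Dnajb1: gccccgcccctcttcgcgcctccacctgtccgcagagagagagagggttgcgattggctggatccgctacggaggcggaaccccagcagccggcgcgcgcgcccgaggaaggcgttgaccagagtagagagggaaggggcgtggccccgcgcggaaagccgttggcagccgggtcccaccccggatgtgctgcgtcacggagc
The windows of Hspa1a and Hspa1b differed at 3 of 250 bases.

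**Figure D2:**
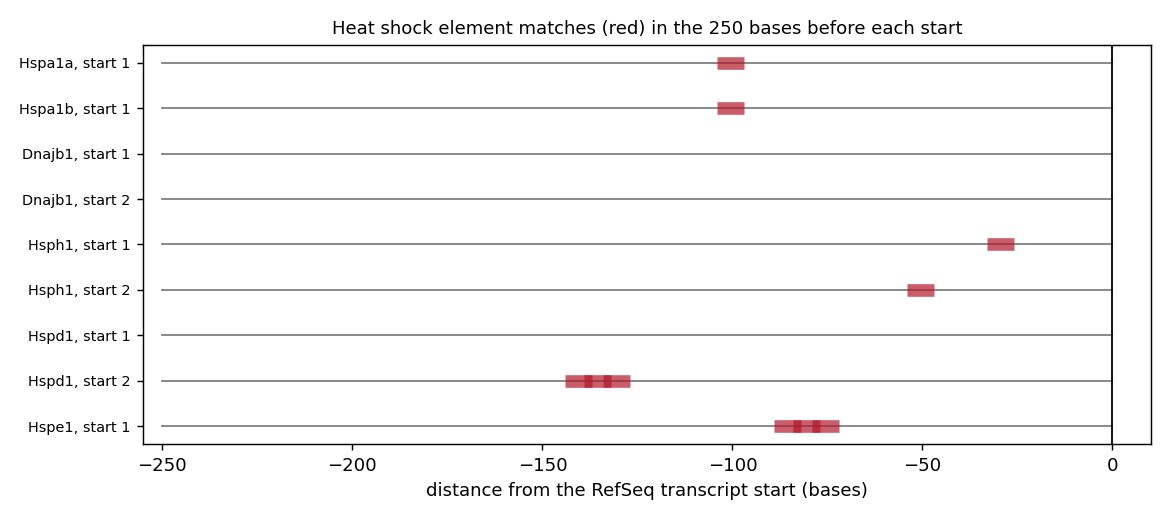
Matches to a pair of facing GAA repeats (red, 8 bases each) along the 250 bases before each RefSeq start of the 6 members with a promoter entry; the horizontal axis is the distance from the start in bases. Overlapping blocks at Hspe1 and at the second start of Hspd1 are runs of repeats, and both starts of Dnajb1 are empty.

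The age comparison asked which members differed between old and young fresh cells, with KO and WT averaged. Dnajb1 and Hspe1 were higher in old cells and no member was lower, so 2 of the 9 members tested passed, where 2.87% of the 10680 genes tested were called in either direction and 1.82% as higher. Values come from edgeR's quasi-likelihood test with Benjamini-Hochberg adjustment over all genes of the fit, and a change was called at an adjusted p under 0.05. Hspa1a was too low to be tested, and Hspa1b passed the filter on low counts only through old cells. The median log2 change was 0.26 over the other 8 members and 0.05 over all genes.

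Dnajb1 encodes the HSP40 co-chaperone that hands clients to HSP70 and stimulates its ATPase. It had 524 and 212 CPM in old fresh KO and 512 and 364 CPM in old fresh WT libraries, against 79.5 and 181 CPM in young fresh KO and 159.6 and 141 CPM in young fresh WT libraries. All 4 old libraries lay above all 4 young ones, although the old KO pair was wide apart. The log2 change was 1.51 ± 0.32 (SE, n = 4 each), a 2.85-fold rise, at adjusted p = 0.00944 by edgeR's quasi-likelihood test. Within a genotype the change was 1.50 in KO and 1.52 in WT, and neither passed alone (adjusted p = 0.17 and 0.164, edgeR). In KO cells Dnajb1 did pass on leaving out either young fresh WT library, young fresh KO replicate 4, either old fresh WT library or old fresh KO replicate 4, with changes of 1.49 to 2.22. Without old fresh KO replicate 3 the KO change was 0.70 (adjusted p = 1, edgeR), and without young fresh KO replicate 3 it was 1.03 (adjusted p = 0.491, edgeR). In WT cells it passed on leaving out either young fresh KO library, old fresh WT replicate 2 or either old fresh KO library, with changes of 1.52 to 1.76, and without old fresh WT replicate 1 the WT change was 1.27 (adjusted p = 0.354, edgeR). These are bulk samples, in which fewer cells of a type and less RNA per cell cannot be told apart.

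Hspe1 encodes HSP10, the lid of the mitochondrial folding barrel. Its levels were 1004 and 1006 CPM in old fresh KO and 856 and 1196 CPM in old fresh WT libraries, against 727 and 776 CPM in young fresh KO and 455 and 405 CPM in young fresh WT libraries. Old and young libraries did not overlap, and within young cells the KO pair lay above the WT pair. The log2 change with age was 0.83 ± 0.19 (adjusted p = 0.0137, edgeR's quasi-likelihood test), and without old fresh WT replicate 2 it was 0.70 at adjusted p = 0.0535. In WT cells alone it was 1.23 ± 0.27 (adjusted p = 0.0217, edgeR), making Hspe1 the 1 member of 9 called there, where 0.843% of genes were called. That call was lost without young fresh WT replicate 1 (adjusted p = 0.0504), young fresh WT replicate 2 (0.136) or old fresh WT replicate 2 (0.164), by the same edgeR test. In KO cells the change was 0.42 (adjusted p = 0.665, edgeR), and 0 of 9 members were called there, against 0.908% of genes, with 1 unadjusted p under 0.05 (8.8% of genes) and 1 call by DESeq2 (5.21% of genes), both for Dnajb1. The age change of Hspe1 differed between genotypes by -0.81 ± 0.37 log2 (KO minus WT, unadjusted p = 0.04, adjusted p = 0.862, edgeR). In this interaction test 0 of the 8 members with counts in young fresh cells and 0% of genes passed. An unadjusted p was under 0.05 for 1 member, Hspe1, and for 608 of the 10680 genes. Hspa1b had 0 counts in the young fresh libraries, so it could not pass there.

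The 3′ end of Hspe1 has near copies elsewhere in the genome. Of the 50-base words in the last 400 bases of its transcript, 59.8% also occurred in transcripts of 5 other genes in the GENCODE M21 annotation, and for Hspa8 the share was 76.6% with 11 other genes. For Hsp90ab1 it was 9.97% with 1 other gene, and for the other 7 members it was 0. How reads that match several places were counted is not given in the sources used here, so levels of Hspe1 and Hspa8 are uncertain to that extent.

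Hspd1 encodes HSP60, the barrel that Hspe1 closes. It had 228 and 177 CPM in old fresh KO and 103 and 198 CPM in old fresh WT libraries, against 209.9 and 175 CPM in young fresh KO and 222 and 238 CPM in young fresh WT libraries. The groups overlapped, and the log2 change was -0.28, with a 95% interval of -0.92 to 0.37. Hspe1 had 4.41 and 5.67 counts for each Hspd1 count in old KO and 8.34 and 6.03 in old WT cells, against 3.47 and 4.45 in young fresh KO and 2.05 and 1.70 in young fresh WT cells. The genes share a promoter region, yet their ratio ranged widely over the fresh groups. It stayed between 3.80 and 4.29 in the 4 stimulated libraries.

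Hspa9, the gene of mortalin, had 340.2 and 534 CPM in old fresh KO and 259 and 355 CPM in old fresh WT libraries, against 300.0 and 263 CPM in young fresh KO and 248 and 229.8 CPM in young fresh WT libraries. Old and young cells overlapped narrowly. The log2 change of 0.49 had a 95% interval of -0.04 to 1.02 and did not pass (adjusted p = 0.418, edgeR).

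Hsph1 encodes an HSP110 protein, an exchange factor that resets HSP70. It had 88.9 and 83.7 CPM in old fresh KO and 206 and 119 CPM in old fresh WT libraries, against 66.2 and 40.2 CPM in young fresh KO and 81.3 and 57.6 CPM in young fresh WT libraries. Every old library was above every young one, by a narrow margin in KO cells. With Dnajb1 and Hspe1 this made 3 members whose old libraries were all higher and 0 whose were all lower, where 4.84% of all genes were higher and 3.59% lower without overlap. The log2 change of Hsph1, 0.95 ± 0.44, did not pass (adjusted p = 0.353, edgeR).

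Hspa1a and Hspa1b encode the stress-inducible HSP70 and were at the limit of detection. Hspa1b had 43 and 54 counts in old fresh KO and 19 and 0 counts in old fresh WT libraries, and 0 counts in all 4 young fresh libraries. A floor of 3 counts was set for the young group of each genotype. Hspa1b in old cells was 12.7-fold that floor in KO (9.82 CPM) and 2.67-fold that floor in WT (2.39 CPM). These CPM values come from pooled counts and library totals, without TMM factors. The floor allows for counting error in young cells only. Error in the old counts (97 in KO and 19 in WT) is not included, so the folds are not strict lower bounds. The old WT value rests on replicate 1. Between libraries the age change of Hspa1b did not pass (unadjusted p = 0.0505, adjusted p = 0.373, edgeR). Hspa1a had 0 counts in all 8 fresh libraries.

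Neither the constitutive cytosolic members, Hspa8 and Hsp90ab1, nor Hsp90aa1 passed with age. Hspa8, the HSP70 that cells make without stress, had 538 and 457 CPM in old fresh KO and 452 and 465 CPM in old fresh WT libraries, against 457 and 664 CPM in young fresh KO and 473 and 489 CPM in young fresh WT libraries. Its log2 change was -0.13, with a 95% interval of -0.57 to 0.31. Dnajb1 had 0.973 and 0.464 counts for each Hspa8 count in old KO and 1.13 and 0.783 in old WT cells, against 0.174 and 0.273 in young fresh KO and 0.337 and 0.289 in young fresh WT cells. Old and young libraries did not overlap in this ratio, as they did not in Dnajb1 alone, so it is no separate result. Hspa8 counts, its denominator, are uncertain because of the shared 3′ end described above.

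Hsp90aa1, the inducible cytosolic HSP90 gene, had 1509 and 1829 CPM in old fresh KO and 1605 and 1407 CPM in old fresh WT libraries, against 1622 and 1784 CPM in young fresh KO and 1307 and 1467 CPM in young fresh WT libraries. Its change of 0.04 log2 had a 95% interval of -0.28 to 0.35. Hsp90ab1, the constitutive HSP90 gene, had 3633 and 3698 CPM in old fresh KO and 3515 and 3437 CPM in old fresh WT libraries, against 4752 and 4362 CPM in young fresh KO and 3427 and 4236 CPM in young fresh WT libraries. The 4 old values lay close together and 3 of the 4 young ones were above them. The log2 change of Hsp90ab1 was -0.24, with a 95% interval of -0.49 to 0.02 (adjusted p = 0.423, edgeR).

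**Figure D3:**
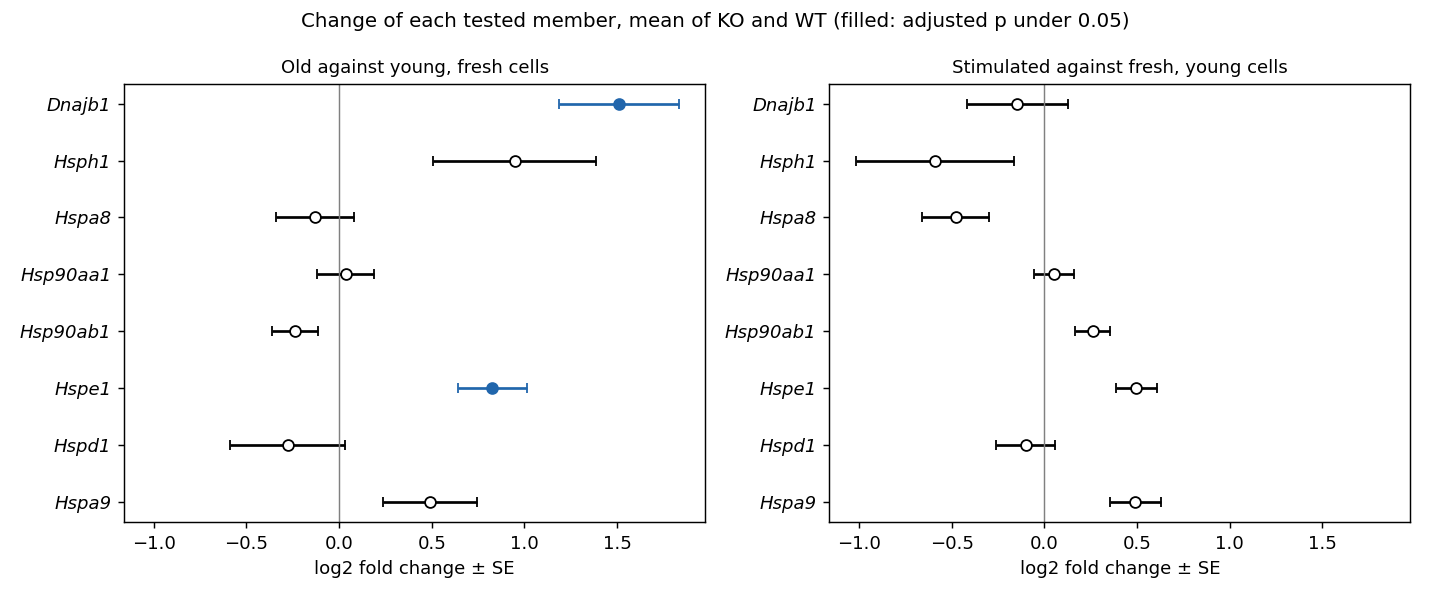
Log2 fold change with its SE (horizontal axis) of the 8 members tested in both comparisons, old against young fresh cells on the left and stimulated against fresh young cells on the right, averaged over KO and WT. Filled points passed an adjusted p of 0.05, which on the left were Dnajb1 and Hspe1 and on the right none.

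Other measures moved with age as well. Of the 12 HSC markers, 2 were called lower in old cells, Cd34 (-1.42 ± 0.29 log2, adjusted p = 0.00683, edgeR) and Hlf (-0.87 ± 0.20 log2, adjusted p = 0.0131, edgeR). None was called higher, yet 7 of the 12 had a positive change, with a median of 0.18 log2 against 0.05 over all genes. Of the 2 T and NK cell markers tested, Klrb1c was called higher, at 15.6 to 105 CPM in old fresh and 0 to 0.57 CPM in young fresh cells (adjusted p = 0.00238, edgeR). The other, Nkg7, was not called and did not rise. It had 0 to 48.8 CPM (median 3.25) in old fresh and 13.7 to 34.6 CPM (median 16.7) in young fresh cells. Protein genes of the mitochondrial genome took 2.69% to 3.75% of counts in old fresh and 3.86% to 4.34% in young fresh libraries. The 9 neutrophil and granule markers summed to less in each old fresh library than in each young fresh one, as given above, with 1 of the 9, Ngp, called lower (-4.76 ± 0.88 log2, adjusted p = 0.0245, edgeR). The 13 immediate early genes that respond to cell handling summed to 422 to 538 CPM in old fresh and 144 to 310 CPM in young fresh cells, with Atf3 at 0 throughout and 0 of the 10 tested called. The 9 erythroid markers summed to 228 to 760 CPM in old fresh and 213 to 318 CPM in young fresh cells, with 0 of the 6 tested called. The part of all these measures in the results on Dnajb1, Hsph1 and Hspe1 was not tested. With every library thinned to the total of the smallest, Dnajb1 was higher by 1.42 log2 (adjusted p = 0.00895, edgeR) and Hspe1 by 0.76 (adjusted p = 0.0241, edgeR).

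Around these members stood 74 genes in 6 lists, namely heat shock factors, cytosolic HSP70 and HSP40 partners, HSP90 co-chaperones, small heat shock proteins, the TRiC and prefoldin folding machines, and mitochondrial chaperones and proteases. With age, 1 of the 66 tested was called higher and 0 lower, to be read against 2.87% of all genes. The one that rose was Hspa4, an HSP110-type exchange factor and so a relative of Hsph1. Hspa4 had 3279 and 2680.2 CPM in old fresh KO and 3722 and 3166 CPM in old fresh WT libraries, against 1135 and 799.6 CPM in young fresh KO and 689.6 and 861 CPM in young fresh WT libraries. Each old library exceeded each young one by far. The rise of Hspa4 was 1.88 ± 0.16 log2 (adjusted p = 2.23e-07, edgeR's quasi-likelihood test), and it passed in KO cells alone (1.63, adjusted p = 0.000492) and in WT cells alone (2.13, adjusted p = 2.3e-05). There were 5.86 to 8.24 Hspa4 counts for each Hspa8 count in old fresh cells and 1.20 to 2.48 in young fresh cells.

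No other pathway gene passed with age. Of 20 cytosolic HSP70 and HSP40 partners tested, 12 had a positive change, with a median of 0.36 log2 against 0.05 over all genes. Of 12 HSP90 co-chaperones, 10 were positive (median 0.39) and none passed. The TRiC and prefoldin genes had 6 of 14 positive (median -0.08), the mitochondrial list 6 of 15 (median -0.24), the heat shock factors 2 of 3 (median 0.30) and the small heat shock proteins 1 of 2 (median -0.33), with no call in any of these lists. Hsf1, the master regulator of the heat shock response, had 0.265 to 6.61 CPM (1 to 32 counts) in old fresh, 11.9 to 18.9 CPM (36 to 57 counts) in stimulated and 0 to 23.5 CPM (0 to 45 counts) in young fresh cells.

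**Figure D4:**
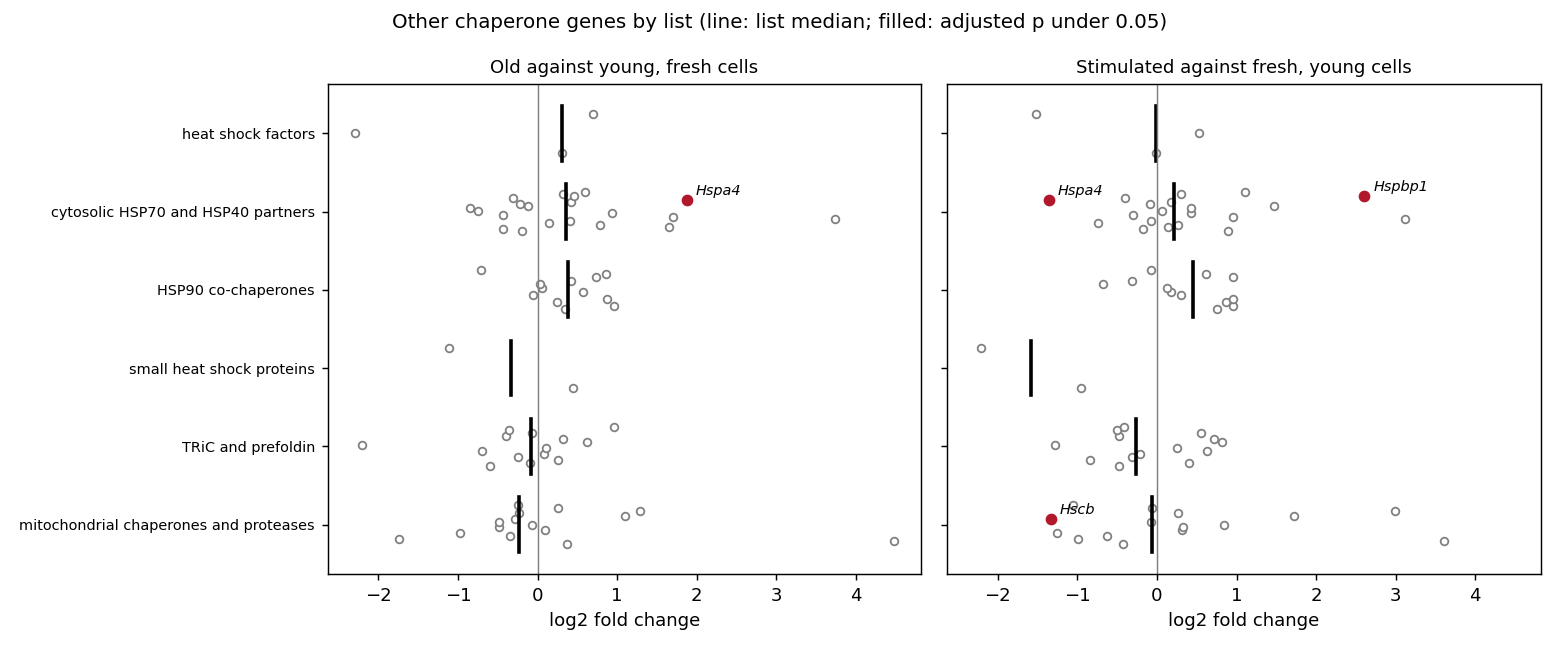
Log2 fold change (horizontal axis) of each tested gene of the 6 chaperone lists (rows), for old against young fresh cells on the left and stimulated against fresh young cells on the right; the black line is the list's median and filled points passed an adjusted p of 0.05. Hspa4 is the called gene on the left, and Hspbp1, Hspa4 and Hscb are those on the right.

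The stimulation comparison asked which members differed after 24 h with cytokines, in young cells with KO and WT averaged. It shares the young fresh libraries with the age comparison, so the results of both are not independent. None of the 8 members tested was called, where 3.61% of 10786 genes were, and 4 of the 8 had an unadjusted p under 0.05, as did 23.7% of all genes. DESeq2 called 3 of the same 8, against 14.3% of all genes. The median log2 change was -0.02 over the members and 0.21 over all genes.

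The mitochondrial pair Hspe1 and Hspa9 came closest to the threshold. Hspe1 had 848 and 732 CPM in stimulated KO and 798 and 829 CPM in stimulated WT libraries, against 727 and 776 CPM in fresh KO and 455 and 405 CPM in fresh WT libraries. Stimulated cells of both genotypes thus lay near the fresh KO level and above the fresh WT level. The averaged log2 change was 0.50 ± 0.11 (adjusted p = 0.0508, edgeR). It passed without young fresh WT replicate 1 (0.55, adjusted p = 0.0499), young fresh KO replicate 3 (0.49, adjusted p = 0.0433) or young fresh KO replicate 4 (0.53, adjusted p = 0.0349) in edgeR's test.

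Split by genotype, Hspe1 changed by 0.09 in KO cells (adjusted p = 0.838, edgeR), with a 95% interval of -0.27 to 0.44, and by 0.90 ± 0.16 in WT cells (adjusted p = 0.0497, edgeR). It was the 1 member of 8 called in WT cells, where 0.788% of genes were called, and 0 of 8 members were called in KO cells, where 0.603% were, with an unadjusted p under 0.05 for Hspa8 (18.3% of genes) and a call of it by DESeq2 (8.43% of genes). The WT call was lost on leaving out any 1 of both young fresh WT, both stimulated WT or both stimulated KO libraries, at adjusted p = 0.091 to 0.447 in edgeR. The difference between genotypes itself was -0.82 ± 0.22 log2 (KO minus WT), with an unadjusted p = 0.00565 and an adjusted p = 0.461 by edgeR. In this interaction test 0 of 8 members and 0% of all 10786 genes passed, and 955 genes (8.85%) had an unadjusted p under 0.05.

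Hspa9 had 377 and 316 CPM in stimulated KO and 403 and 364 CPM in stimulated WT libraries, against 300.0 and 263 CPM in fresh KO and 248 and 229.8 CPM in fresh WT libraries. All stimulated libraries were above all fresh ones, the 1 member of 8 without overlap, and 13.9% of all genes were higher in this way. The log2 change of Hspa9 was 0.49 ± 0.14 (adjusted p = 0.0801, edgeR). Without young fresh KO replicate 3 it passed at 0.56 (adjusted p = 0.047, edgeR). Hspd1 had 207 and 171 CPM in stimulated KO and 210.1 and 197 CPM in stimulated WT libraries, which overlapped the fresh ones, and a change of -0.10 with a 95% interval of -0.47 to 0.27.

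The constitutive cytosolic members did not pass with stimulation. Hsp90ab1 had 4598 and 4747 CPM in stimulated KO and 5858 and 4878 CPM in stimulated WT libraries, against the 3427 to 4752 CPM of fresh young cells. Hspa8 had 286 and 371 CPM in stimulated KO and 488 and 355 CPM in stimulated WT libraries, against 457 to 664 CPM in fresh young cells. Only stimulated WT replicate 1 of Hspa8 reached the fresh range. The log2 changes were 0.26 ± 0.09 for Hsp90ab1 (adjusted p = 0.146, edgeR) and -0.48 ± 0.18 for Hspa8 (adjusted p = 0.157, edgeR). In KO cells alone Hspa8 changed by -0.75 ± 0.25 (adjusted p = 0.193, edgeR), and in WT cells by -0.21 (adjusted p = 0.791, edgeR).

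The inducible cytosolic genes and Hsph1 did not pass with stimulation either. Hsp90aa1 had 1641 and 1454 CPM in stimulated KO and 1829 and 1453 CPM in stimulated WT libraries, and a change of 0.05 with a 95% interval of -0.19 to 0.30. Dnajb1 had 132 and 129 CPM in stimulated KO and 129 and 116 CPM in stimulated WT libraries, all inside the fresh range, with a change of -0.15 and a 95% interval of -0.77 to 0.48. Hsph1 had 59.5 and 28.1 CPM in stimulated KO and 50.5 and 24.0 CPM in stimulated WT libraries, with a change of -0.59 and a 95% interval of -1.58 to 0.39. Hspa1a was counted in stimulated KO cells alone, with 7 and 5 counts, and Hspa1b had 16 and 2 counts in stimulated KO and 4 and 1 counts in stimulated WT libraries. These numbers were too low for the test.

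Of the 66 pathway genes tested, stimulation raised 1 and lowered 2, to be read against the 3.61% of all genes called. Hspa4 had 389 and 303 CPM in stimulated KO and 350.2 and 311 CPM in stimulated WT cells and was lower than in fresh cells by -1.36 ± 0.16 log2 (adjusted p = 0.00611, edgeR). Its levels in the 3 conditions did not overlap. Hspbp1, whose product releases nucleotide from HSP70, had 95.5 and 92.5 CPM in stimulated KO and 116 and 103 CPM in stimulated WT libraries, against 10.2 and 4.70 CPM in fresh KO and 54.4 and 19.4 CPM in fresh WT libraries. It was higher by 2.60 ± 0.44 log2 (adjusted p = 0.0206, edgeR). Hscb, a mitochondrial co-chaperone of iron-sulphur cluster assembly, had 74.9 and 98.1 CPM in stimulated KO and 77.0 and 71.1 CPM in stimulated WT libraries, against 216 and 144 CPM in fresh KO and 263 and 191 CPM in fresh WT libraries, and its change was -1.34 ± 0.23 (adjusted p = 0.0224, edgeR). Leaving out any 1 of stimulated WT replicates 1 and 2 or KO replicates 3 and 4 ended both calls, at adjusted p = 0.0928 to 0.114 for Hspbp1 and 0.104 to 0.163 for Hscb in edgeR.

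By list, stimulation gave 9 of 12 HSP90 co-chaperones a positive change (median 0.46 log2, against 0.21 over all genes) and 13 of 20 cytosolic HSP70 and HSP40 partners (median 0.22). For the TRiC and prefoldin list it was 6 of 14 (median -0.26), for the mitochondrial list 7 of 15 (median -0.06), for the heat shock factors 1 of 3 (median -0.02) and for the small heat shock proteins 0 of 2 (median -1.58). The immediate early genes summed to 394 to 908 CPM in stimulated and 144 to 310 CPM in fresh young cells, with 1 of 11 tested called higher. The monocyte and macrophage markers summed to 246 to 323 CPM in stimulated and 21.4 to 140 CPM in fresh young cells, and 5 or 6 of the 6 were above 0 in stimulated libraries. Of these, Ly6c2 was the 1 of 5 tested that was called higher. At 196 to 272 CPM in stimulated and 0 to 20.5 CPM in fresh young cells, it made up most of the stimulated sum. Of the 5, 4 had a positive change, and Lyz2 changed by -0.83 log2 without a call. The neutrophil and granule markers were called in both directions: of 9, Elane (21.3-fold), Mpo (17.0-fold) and Prtn3 (9.06-fold) were higher after stimulation, and S100a8, S100a9, Ngp and Camp were lower, by -2.33 to -3.99 log2. Of the T and NK cell markers Nkg7 was called higher, at 93.5 to 226 CPM in stimulated and 13.7 to 34.6 CPM in fresh young cells. Of the 12 HSC markers 3 were called lower, Hlf (-1.04 log2), Meis1 (-1.09) and Mycn (-1.81), and none higher. Mitochondrial genome transcripts took 2.93% to 3.18% of counts in stimulated and 3.86% to 4.34% in fresh young libraries. The 7 B cell markers summed to 22.0 to 200 CPM in stimulated and 0.626 to 21.9 CPM in fresh young cells, with 0 of the 3 tested called. The part of all these in the member results was not tested.

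**Figure D5:**
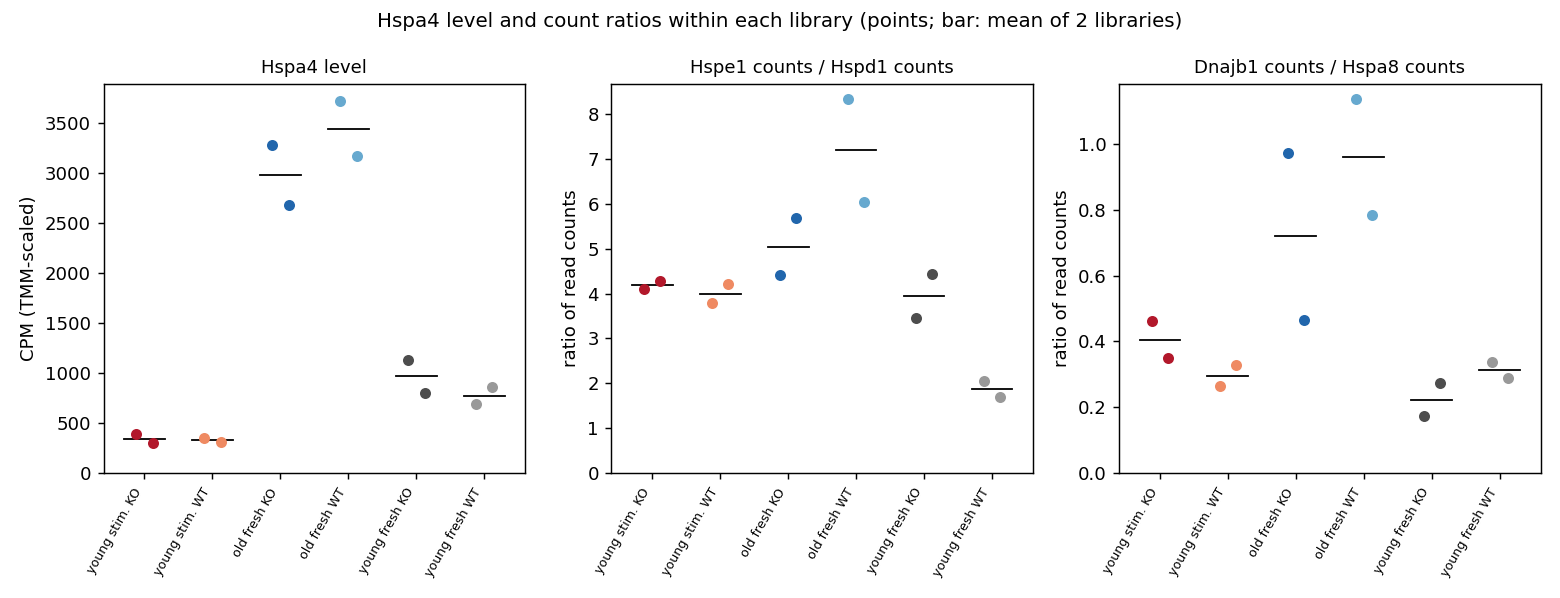
Level of Hspa4 in CPM (left) and the ratio of read counts within a library for Hspe1 over Hspd1 (middle) and Dnajb1 over Hspa8 (right), each for the 12 libraries (points) with the group mean as a bar; all vertical axes start at 0. Hspa4 is highest in old fresh and lowest in stimulated cells, and the Hspe1 to Hspd1 ratio is lowest in young fresh WT cells at 2.05 and 1.70.

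The genotype comparisons asked whether members differed between Cd38 KO and WT cells within a condition. No member was called in any of them by edgeR. An unadjusted p was under 0.05 for 1 of 8 members in stimulated cells (11.1% of genes) and 0 of 9 in old fresh cells (3.98% of genes). In young fresh cells it was 1 of the 8 members with counts (4.85% of genes). Hspa1b had 0 counts in all 4 young fresh libraries, so it could not pass there. DESeq2 called 0 members in stimulated cells (1.23% of genes) and in old fresh cells (0.983% of genes) and 1, Hspe1, in young fresh cells (1.28% of genes). In stimulated cells, 0 of 8 passed where 1.61% of 10494 genes did, with log2 changes from -0.34 to 0.26. The smallest p belonged to Hspa8, which was at 286 and 371 CPM in KO against 488 and 355 CPM in WT, groups that overlapped, with a change of -0.34 ± 0.16 (unadjusted p = 0.0494, adjusted p = 0.447, edgeR). Of the 12 HSC markers 5 were called higher and 1, Cd34, lower in stimulated KO than in stimulated WT cells. For Hspe1 in these cells the 95% interval was -0.27 to 0.23 and for Hsp90aa1 -0.31 to 0.19.

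In old fresh cells 0 of 9 members passed, and 0% of the 10680 genes did, of which 425 had an unadjusted p under 0.05. In young fresh cells 0 of the 8 members with counts passed against 0.00936% of genes, that is 1 gene. Hspe1 had the smallest p of the members there, at 727 and 776 CPM in KO against 455 and 405 CPM in WT. Both KO libraries were above both WT libraries. Among the members with counts, 4 were higher in this way, Hspe1 included, and 1 was lower. The share of all genes that separated so is not given here. The change of Hspe1 was 0.80 ± 0.26 log2 with a 95% interval of 0.25 to 1.35. Yet over all genes tested its adjusted p was 0.851 in edgeR (unadjusted p = 0.00663). The changes of Hspe1 with age and stimulation in WT cells and both interactions use the same 2 young fresh WT libraries as this difference. These results are thus not independent of each other. Replicate 1 of that pair was the library without an Xist count. In old fresh and in stimulated cells Hspe1 differed between KO and WT by -0.02 log2. Among the 74 pathway genes none was called between genotypes in any condition.

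Over all 12 libraries, the genes outside the family whose log2 CPM followed the mean standardised level of the 9 members above the filter most closely were Pigw (Pearson r = 0.863), Srsf7 (0.854), Naf1 (0.849), Gypc (0.845) and Abhd13 (0.807), of 6447 candidates. The members did not all move together. Their Pearson r with each other ranged from -0.727 (Hsp90ab1 with Dnajb1) to 0.715 (Dnajb1 with Hsph1). The mean also gives Hspa1b, which was near the limit of detection, the same weight as the others. Likeness to this mean is thus not likeness to each member. The 12 libraries share 6 groups and 3 depths, so the values for Pigw and the other genes named describe likeness in this set of samples.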

How the data were processed

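The authors deposited raw read counts per gene symbol, from QuantSeq 3′ FWD libraries per the labels' protocols. HISAT2 2.2.1, HTSeq 0.9.1, DESeq2 1.34.0 and the build mm10 are named in the submitters' processing notes. The annotation, strand setting and treatment of reads matching several places are not given in the sources used here, and such treatment moves genes with near copies.

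Counts were analysed in R 4.3.3 with edgeR 4.0.16 (TMM scaling, filterByExpr with a minimum count of 10 and total of 15, robust quasi-likelihood fit, Benjamini-Hochberg adjustment, threshold 0.05). The tests used 3 fits, of the 8 young libraries (10786 genes), the 4 stimulated libraries (10494 genes) and the 8 fresh libraries (10680 genes). The fit of young libraries gives fresh and stimulated cells 1 shared estimate of spread. Filters set aside Hspa1a in all 3 fits and Hspa1b in those with stimulated cells. CPM values use TMM factors from all 12 libraries, except those of Hspa1b set against its floor. Floors of 3 counts cover counting error in the group without counts only. The 95% intervals cover counting error and residual spread only.

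Alternatives were RLE or total scaling, no filter, DESeq2 1.42.0, limma 3.58.1 (voom with a weight per group), 1 fit of 12 libraries, a replicate block and each library left out. A fit without the robust estimate and one on thinned counts were chosen after seeing the data. Code was tested on simulated data.

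The 10 members and all lists were chosen with earlier results of these data known. All members were named, and of the other lists those called in the averaged comparisons, with Hsf1. The genes of like pattern were the 5 of highest Pearson r with a mean of at least 20 CPM, on log2 values with a prior count of 2. Promoters are from RefSeq, and transcript ends from GENCODE M21.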

Additional observations from a re-analysis of the deposited data

How the results depend on the processing

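The call of Dnajb1 with age (log2 1.12 to 1.87 over all alternatives, largest adjusted p = 0.0493 in edgeR) and of Hspa4 with age (1.75 to 2.02) passed in every alternative run. The count of members called with age was 2 in every setting but 1 to 2 with a library left out. In WT cells alone it was 2 with no filter, 2 with DESeq2 and 2 with the replicate block, and 0 to 2 with a library left out, and in KO cells alone 1 with no filter, 1 with DESeq2 and 0 to 1 with a library left out. For stimulation the averaged count was 2 with library totals, 1 with no filter, 3 with DESeq2 and 0 to 2 with a library left out. In WT cells alone it was 0 with RLE scaling, 0 in the fit of 12 libraries and 0 to 1 with a library left out. DESeq2 also called 1 member for stimulation in KO cells (Hspa8), 1 in the interaction with stimulation (Hspe1) and 1 between KO and WT in young fresh cells (Hspe1, 0.80, adjusted p = 0.0305). Library totals moved the median of all genes with stimulation to 0.35, against 0.21 with TMM, and with age to -0.07, against 0.05.

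Values that changed sign were all of uncalled members. Hsp90aa1 with stimulation was -0.0078 with RLE scaling and -0.0078 with DESeq2, and -0.021 to 0.15 with a library left out. Hsp90aa1 with age was -0.090 with library totals and -0.026 with thinned counts, and -0.031 to 0.11 with a library left out. Hspd1 with stimulation was 0.040 with library totals. With a library left out, Dnajb1 with stimulation ranged over -0.37 to 0.22, Hspa8 with stimulation in WT over -0.43 to 0.022, Hspe1 with stimulation in KO over -0.019 to 0.20 and Hspa8 with age over -0.25 to 0.019. The cause of these changes was not tested. Of the single-gene values recomputed, 525 kept their direction and side of the threshold, 20 lost a call, 29 gained one and 13 changed sign.

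The labels number replicates 1 and 2 in WT and 3 and 4 in KO, and same-numbered libraries did not deviate together across genes (r = -0.0066 to 0.0118 over 11548 genes), so the numbers were not taken as pairs. With the replicate block Dnajb1 also passed with age in WT cells (1.50, adjusted p = 0.0281, edgeR), and no other count of members or single-gene call given in the text changed. No paired analysis was possible because KO and WT share no numbers, for the comparisons between genotypes. With the filter, Hspa1a was in none of the 3 fits and Hspa1b in that of fresh cells alone, and its age change passed in no alternative (adjusted p = 0.12 to 1, edgeR, DESeq2 or limma).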
